A study of Mus musculus with 6 samples.

Results

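The genes described here are 10 genes of glucose uptake and glycolysis in mouse embryonic stem cells (ESCs), chosen by symbol from the 23420 gene symbols in the count files. They are the glucose transporter *Slc2a1* and the enzyme genes *Hk1*, *Hk2*, *Gpi1*, *Pfkl*, *Pfkp*, *Aldoa*, *Gapdh*, *Pkm* and *Ldha*, and all 10 were found and tested. RNA-seq was performed on E14 ESCs, a mouse line kept in LIF and inhibitors of MEK and GSK3, as wild type (WT) and with both copies of *Patz1* knocked out by CRISPR (*Patz1*-/-, KO). Each genotype had 3 libraries, made from ribosomal RNA-depleted total RNA. *Patz1* encodes a zinc finger protein with a POZ domain, and the study asked how gene expression differed without it. Several KO clones were made for the study, and which of them gave these libraries is not given in the sources used here, so the genotype and the history of the KO cells cannot be told apart.

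Glycolysis splits glucose into pyruvate in the cytosol and yields ATP without oxygen. Glucose enters through facilitative transporters, is trapped by hexokinase, and is committed to the pathway by phosphofructokinase. Pyruvate kinase makes pyruvate, and lactate dehydrogenase converts pyruvate to lactate while regenerating the NAD+ that glyceraldehyde-3-phosphate dehydrogenase needs. Most of these steps have several isoenzymes from separate genes, which differ in kinetics and in the tissues that use them. Pluripotent stem cells are known for a high rate of glycolysis, and hypoxia-inducible factors and MYC are known activators of many glycolytic genes.

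The promoters of the glycolytic genes are shown first because these genes are textbook targets of factors with short, known motifs. The 10 genes had 15 promoters in RefSeq, each taken as the 250 bases before a transcription start on GRCm38.p6. The letters ACGTG, the core of the hypoxia response element, were found on either strand in 6 of these 15 promoters, which belong to 5 of the 10 genes, and in 16.6% of all 32851 promoters of the same length. Of the 6, 2 are overlapping promoters of *Aldoa* that hold the same site. The 6 had 61.6% to 69.6% G and C and the others of the 15 had 49.6% to 66.4%. The share over all promoters was not matched for this. The letters CACGTG, the MYC E-box, which contain ACGTG on both strands, were found in 1 of the 15, a promoter of *Ldha*, and in 6.02% of all promoters. The letters GGGAGGG, the core of the motif of the zinc finger protein MAZ, were found in 4 of the 15, 1 each of *Slc2a1*, *Hk1*, *Gapdh* and *Pkm*, and in 19.7% of all promoters. Below are one promoter of each of the 5 genes with ACGTG, and that of *Pfkp*, which rose in KO and had none of these letters. Where a gene has several starts, the one shown is the first whose promoter holds ACGTG. Capitals mark ACGTG and GGGAGGG on either strand, so that CACGT and CCCTCCC are the same letters read from the other strand.
Slc2a1 (chr4:119108495-119108744, plus strand): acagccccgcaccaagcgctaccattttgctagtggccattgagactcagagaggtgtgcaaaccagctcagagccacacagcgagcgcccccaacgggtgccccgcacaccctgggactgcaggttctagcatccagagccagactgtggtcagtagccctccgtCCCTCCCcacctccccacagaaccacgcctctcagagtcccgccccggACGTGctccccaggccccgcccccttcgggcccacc
Hk2 (chr6:82774455-82774704, minus strand): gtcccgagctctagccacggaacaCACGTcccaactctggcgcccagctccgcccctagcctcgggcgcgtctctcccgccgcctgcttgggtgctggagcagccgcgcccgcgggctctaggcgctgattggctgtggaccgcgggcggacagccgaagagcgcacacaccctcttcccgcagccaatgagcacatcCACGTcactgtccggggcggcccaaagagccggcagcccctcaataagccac
Pfkp (chr13:6648772-6649021, minus strand): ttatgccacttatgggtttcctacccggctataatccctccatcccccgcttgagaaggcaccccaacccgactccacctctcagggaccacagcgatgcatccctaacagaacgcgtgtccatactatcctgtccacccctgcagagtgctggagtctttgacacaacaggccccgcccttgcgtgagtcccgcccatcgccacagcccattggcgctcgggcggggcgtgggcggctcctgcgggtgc
Aldoa (chr7:126799255-126799504, minus strand): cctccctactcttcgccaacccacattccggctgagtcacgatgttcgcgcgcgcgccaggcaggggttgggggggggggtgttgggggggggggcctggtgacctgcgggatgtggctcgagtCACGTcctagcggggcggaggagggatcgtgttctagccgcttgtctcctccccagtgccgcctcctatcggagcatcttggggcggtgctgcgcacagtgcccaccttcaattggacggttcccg
Pkm (chr9:59656977-59657226, plus strand): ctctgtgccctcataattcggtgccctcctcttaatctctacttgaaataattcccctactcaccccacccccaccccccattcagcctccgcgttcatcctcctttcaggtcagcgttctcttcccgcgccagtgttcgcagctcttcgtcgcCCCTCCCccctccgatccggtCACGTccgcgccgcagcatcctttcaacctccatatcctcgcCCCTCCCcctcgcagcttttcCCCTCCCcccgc
Ldha (chr7:46845554-46845803, plus strand): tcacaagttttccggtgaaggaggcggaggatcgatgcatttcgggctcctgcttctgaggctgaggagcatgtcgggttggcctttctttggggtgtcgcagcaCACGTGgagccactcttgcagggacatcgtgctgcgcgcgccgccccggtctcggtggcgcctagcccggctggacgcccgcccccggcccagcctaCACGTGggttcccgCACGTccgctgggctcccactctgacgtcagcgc
The *Ldha* promoter carried ACGTG at 5 positions, counting both strands, and 4 of these lay in its 2 copies of CACGTG. The promoters of *Hk2* and *Pkm* carried ACGTG at 2 positions and 1 position, and that of *Pkm* also carried GGGAGGG at 3. *Slc2a1* and *Aldoa* had ACGTG at 1 position in the promoter shown. A match of letters is a description of the sequence, and no binding was measured in these libraries.

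In order of replicate number, which is the order of all values by library below, the WT libraries held 46301472, 37573923 and 11040756 counts and the KO libraries 47721070, 46724594 and 11420268. Both replicate 3 libraries stood apart. They were the shallowest, and the ribosomal RNA precursor *Rn45s* took 14.4% (WT) and 12.5% (KO) of their counts, while the other 4 libraries gave it 1.79% to 3.03%. *Patz1* itself fell from 1838, 1983 and 1843 normalized counts (counts divided by a size factor for depth) to 853, 862 and 862 (log2 fold change -1.14, SE 0.10, adjusted p = 1.58e-26), and gene counts do not show which part of the gene the remaining reads cover. The 8 ESC markers examined had between 2497 and 47515 normalized counts in every library. They summed to 150024 to 158509 in WT and 170103 to 176061 in KO, without overlap. Of the 8 log2 fold changes 7 were above 0, beside 62.4% of genes with a mean of at least 1000 normalized counts. The test described below called 1 of the 8 as higher, beside 3.23% of those genes. The part of these ESC marker differences in the changes of the glycolytic genes was not tested. Of the fibroblast feeder markers, *Dcn*, *Lum* and *Col3a1* were at or below 2.74 normalized counts, and the list of 6 summed to 87.5 to 108.0 in WT and 134 to 169 in KO. Of these 6, *Thy1* passed, with 58.3, 79.8 and 79.4 normalized counts in WT and 115, 119 and 156 in KO (log2 fold change 0.83, SE 0.25, adjusted p = 0.0147), and its part in the changes of the glycolytic genes was not tested. Without *Thy1* the other 5 summed to 29.2, 28.2 and 16.4 normalized counts in WT and 19.2, 18.4 and 13.2 in KO, so the higher sum in KO was that of *Thy1* alone.

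In KO, 5 of the 10 glycolytic genes rose and none fell. The 5 were *Slc2a1*, *Pfkp*, *Aldoa*, *Pkm* and *Ldha*, whose transcripts were 1.31- to 1.50-fold higher than in WT. They encode a transporter of glucose uptake, a phosphofructokinase of the committing step, the aldolase and the enzymes of the last steps to lactate, whereas *Hk1*, *Hk2*, *Gpi1*, *Pfkl* and *Gapdh* did not pass the test at 1.09- to 1.33-fold. The test was the Wald test of DESeq2 with Benjamini-Hochberg adjustment over all genes and a threshold of 0.05. It called 2.70% of the 15309 genes tested as higher in KO, 4.78% as lower and 7.49% in either direction, and 3.23% as higher among the 4606 genes with a mean of at least 1000 normalized counts. The log2 fold changes of the 10 genes ran from 0.12 to 0.58 with a median of 0.40, beside a median of 0.01 over all genes tested and 0.04 over those of at least 1000 normalized counts. In bulk RNA a higher level in every cell and a larger share of cells with a high level cannot be told apart.

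**Figure D1:**
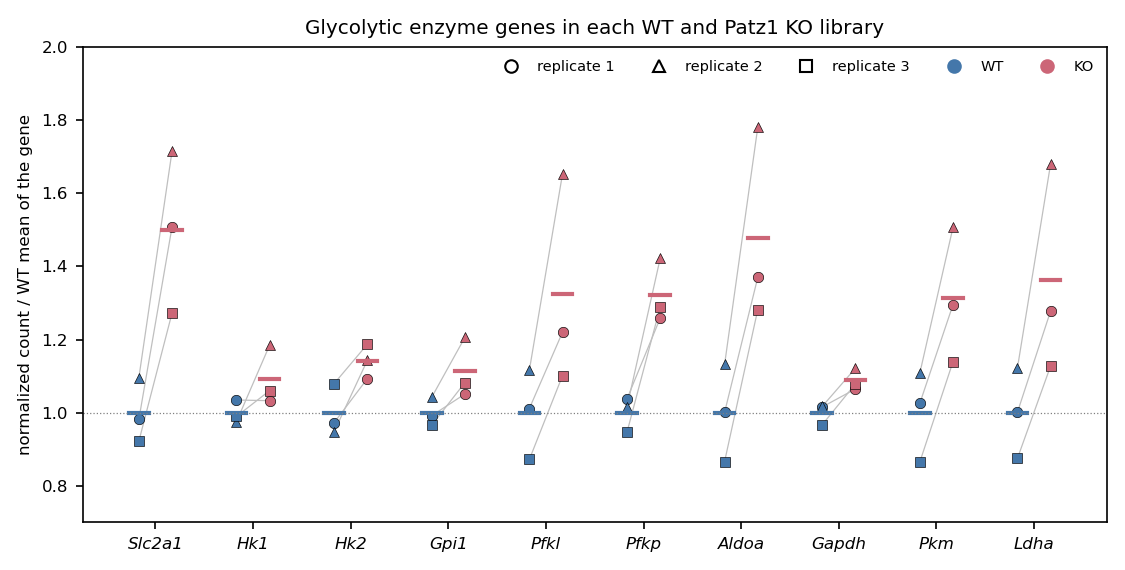
Normalized count of each of the 10 glycolytic genes in each library, divided by the mean of the gene's 3 WT libraries, with 1 symbol per library (circle, triangle and square for replicates 1, 2 and 3, WT blue and KO red), bars for the genotype means and grey lines between libraries of the same number. For 8 of the 10 genes every KO library lies above every WT library, and *Hk1* and *Pfkl* overlap.

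The 10 genes together had 147005, 156550 and 133228 normalized counts in the WT libraries and 180153, 212437 and 168855 in KO. All 3 KO sums were above all 3 WT sums. As a share of all counts, before any size factor, they took 0.555%, 0.590% and 0.441% in WT and 0.669%, 0.767% and 0.559% in KO, so that KO replicate 3 fell between WT replicates 1 and 2, while each KO library was above the WT library of the same number. For 8 of the 10 genes every KO library was above every WT library, and this held for 11.8% of all genes tested and 14.2% of those with at least 1000 normalized counts.

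Same-numbered WT and KO libraries deviated from their genotype means together (correlations of 0.469, 0.619 and 0.684 over 11524 genes). Deviations of a gene cancel out within a genotype, so these correlations are not independent, and both replicate 3 libraries stood apart. The titles give replicate numbers only, and libraries of the same number are called pairs here. The glycolytic genes also moved with the number. Relative to their genotype means, the median of the 10 was highest in replicate 2 (0.10 in WT and 0.16 in KO on the log2 scale) and lowest in replicate 3 (-0.10 and -0.12). Between libraries of the same number, 29 of the 30 KO to WT ratios of the glycolytic genes were above 1. The median log2 ratio of the 10 genes was 0.27 in pair 1, 0.46 in pair 2 and 0.35 in pair 3, beside 0.02, 0.04 and 0.05 for all genes of at least 1000 normalized counts. Being higher in all 3 pairs held for 9 of the 10 genes, beside 27.2% of all genes tested and 38.7% of genes of at least 1000 normalized counts. With the replicate number as a block in DESeq2, 7 of the 10 passed, the 5 named above with *Hk2* and *Pfkl*, and the same fit called 6.68% of all genes tested and 12.2% of those with at least 1000 normalized counts as higher.

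The count of 5 depended on the tool and on single libraries, but the direction did not. All 10 log2 fold changes were above 0 under each of the 18 other settings, and the count was 2 with edgeR, where 2.26% of genes were called higher, and 3 with limma-voom, where 2.89% were. With the block in edgeR it was 8, beside 11.3% of genes. Leaving out WT replicate 1, WT replicate 3 or KO replicate 1 gave 3, leaving out KO replicate 2 gave 2, and leaving out both replicate 1 libraries gave 0. In these fits the share of all genes called higher was 3.33% without WT replicate 3, between 1.46% and 1.75% without WT replicate 1 or 2 or KO replicate 1 or 2, and 0.548% without both replicate 1 libraries. In the last of them, 6 of the 10 and 2.46% of all genes tested were higher at an unadjusted p under 0.05.

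*Slc2a1* encodes GLUT1, a facilitative glucose transporter of the plasma membrane. The gene (chr4:119108711-119137983 on GRCm38, plus strand) had 2989, 3336 and 2807 normalized counts in WT and 4591, 5222 and 3874 in KO. The genotypes were well separated, with the lowest KO library above the highest WT library. The rise was 1.50-fold (95% interval 1.27 to 1.78, log2 fold change 0.58, SE 0.12, adjusted p = 0.000137 by DESeq2), and the adjusted p was 0.0223 by edgeR. This and the rise of *Aldoa* were of nearly the same size, and which of them was larger changed with the libraries left out. *Slc2a1* kept its call under every other setting except the one without both replicate 1 libraries (adjusted p = 0.125).

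Hexokinases phosphorylate glucose to glucose-6-phosphate. *Hk2* (chr6:82725025-82774454, minus strand) had 15947, 15539 and 17699 normalized counts in WT and 17920, 18741 and 19461 in KO, so the lowest KO library was just above the highest WT library. Its log2 fold change of 0.19 (SE 0.09, 1.14-fold, 95% interval 1.01 to 1.29) did not pass the DESeq2 test (adjusted p = 0.247), but it passed with the replicate block (adjusted p = 0.00346). *Hk1* (chr10:62268855-62379908, minus strand) had 1091, 1028 and 1043 normalized counts in WT and 1089, 1249 and 1118 in KO. These overlapped, and the interval of the fold change was 0.942 to 1.27 (adjusted p = 0.661). *Hk1* was also the gene with the single pair ratio below 1, at -0.0026 on the log2 scale in pair 1.

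*Gpi1* (chr7:34201330-34230336, minus strand), the isomerase that makes fructose-6-phosphate, had 6816, 7163 and 6637 normalized counts in WT and 7224, 8289 and 7439 in KO. The genotypes did not overlap, but the log2 fold change of 0.15 (SE 0.09) did not pass the test (adjusted p = 0.440, and 0.0506 with the replicate block in DESeq2), and it was 0.09 on leaving out KO replicate 2.

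Phosphofructokinase makes fructose-1,6-bisphosphate and commits the sugar to glycolysis. *Pfkp* (chr13:6579768-6648777, minus strand), the platelet type, had 5145, 5036 and 4693 normalized counts in WT and 6239, 7049 and 6390 in KO. The WT libraries were close to each other and all KO libraries lay above them, a 1.32-fold rise (95% interval 1.16 to 1.50, log2 fold change 0.40, SE 0.10, adjusted p = 0.000871 by DESeq2 and 0.0254 by edgeR). The call was lost on leaving out both replicate 1 libraries (adjusted p = 0.125) or both replicate 2 libraries (0.352). *Pfkl* (chr10:77986947-78010083, minus strand), the liver type, had 2531, 2794 and 2182 normalized counts in WT and 3054, 4137 and 2756 in KO. Its log2 fold change was about the same, 0.41, but its libraries were more spread (SE 0.15), KO replicate 3 was below WT replicate 2, and it did not pass (adjusted p = 0.0753). With the replicate block it did (adjusted p = 4.86e-06), while on leaving out KO replicate 2, its highest library, the log2 fold change was 0.21.

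*Aldoa* (chr7:126795234-126800751, minus strand) encodes the aldolase that splits the sugar into triose phosphates. It had 21179, 23952 and 18332 normalized counts in WT and 28986, 37675 and 27124 in KO, without overlap. The rise was 1.48-fold (95% interval 1.23 to 1.78, log2 fold change 0.56, SE 0.14, adjusted p = 0.00139 by DESeq2, 0.0527 by edgeR). Without KO replicate 2, the highest library, the log2 fold change was 0.41 and the adjusted p 0.0537. *Gapdh* (chr6:125161715-125166467, minus strand), the dehydrogenase of the next step and a common reference gene, had 21031, 21063 and 20027 normalized counts in WT and 22051, 23224 and 22341 in KO. All KO libraries were above all WT libraries, and the difference was small and did not pass (log2 fold change 0.12, SE 0.08, 95% interval of the fold 0.973 to 1.22, adjusted p = 0.510). Measured against *Gapdh* within each library, *Pkm* counts per kb of exon stood at a ratio of 1.44 ± 0.141 in WT and 1.74 ± 0.207 in KO (± SD of 3 libraries). The ranges overlapped, but the ratio was higher in KO in each of the 3 pairs, at 1.45 and 1.75, 1.57 and 1.93, and 1.29 and 1.52.

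*Pkm* (chr9:59656368-59679375, plus strand) encodes the pyruvate kinase of most tissues. It had 53149, 57432 and 44839 normalized counts in WT and 67132, 78096 and 59058 in KO. WT replicate 2 came within a small margin of KO replicate 3, without overlap. The rise was 1.31-fold (95% interval 1.11 to 1.56, log2 fold change 0.39, SE 0.13, adjusted p = 0.0286 by DESeq2 and 0.112 by edgeR). Its M1 and M2 splice forms, which differ in 1 alternative exon, share the gene symbol and cannot be separated in gene counts. *Ldha* (chr7:46841475-46855627, plus strand), the lactate dehydrogenase subunit of muscle and of glycolytic cells, had 17128, 19208 and 14969 normalized counts in WT and 21867, 28756 and 19294 in KO. The lowest KO library was just above the highest WT library, and the rise was 1.36-fold (95% interval 1.12 to 1.66, log2 fold change 0.45, SE 0.14, adjusted p = 0.0304 by DESeq2, 0.130 by edgeR). Both calls were lost on leaving out WT replicate 1 or 3 or KO replicate 1 or 2, where the log2 fold change was 0.41, 0.30, 0.40 and 0.29 for *Pkm* and 0.45, 0.36, 0.49 and 0.27 for *Ldha*, in that order of the library left out.

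**Figure D2:**
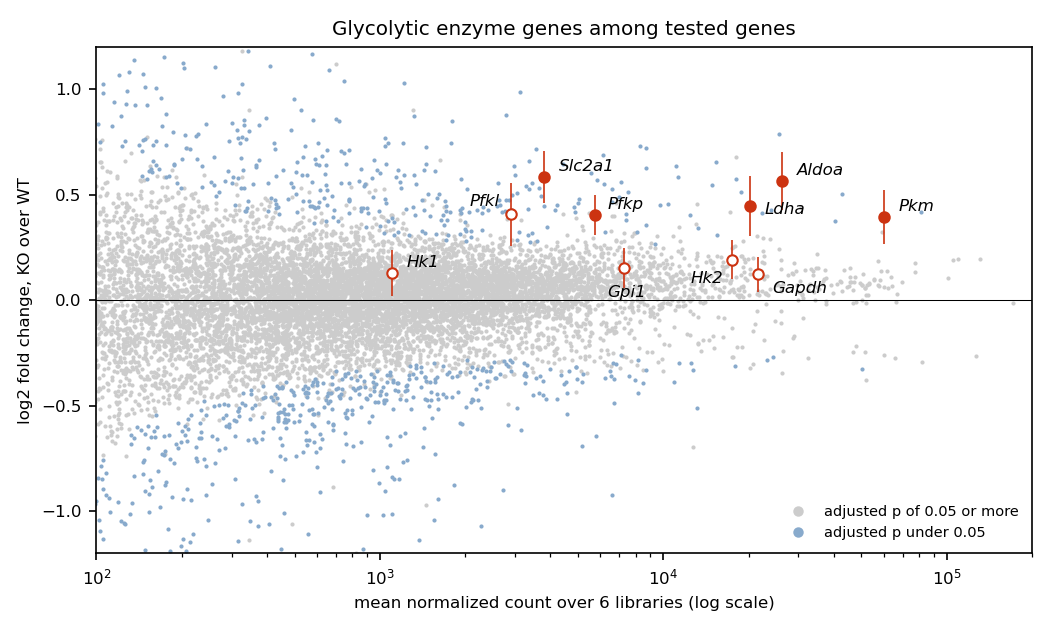
Log2 fold change of KO over WT against the mean normalized count (log axis) for all genes tested by DESeq2 that fall within the axes, blue with an adjusted p under 0.05 and grey otherwise. The 10 glycolytic genes are in red, filled where called, with bars of 1 SE on each side. All 10 lie above 0, between 0.12 and 0.58, and genes with fewer than 100 normalized counts or with changes beyond the axes are not drawn.

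None of the 10 lies on chromosome 11 or X, parts of which were shifted in these cells. There, medians of the log2 fold change were taken over genes within 10 Mb of each tested gene of the pathway list described below. These medians lay between -0.28 and -0.25 on chromosome 11. On X they ran from 0.03 around *G6pdx* to 0.44 around *Pfkfb1*, and whole chromosomes were not measured. Genes within 10 Mb of each of the 10 had medians between -0.01 and 0.09. With size factors from genes outside chromosomes 11, X and Y, 5 of the 10 were called.

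Levels of different genes were compared as normalized counts per kb of exon, using the union of exons of each gene. Over the 6 libraries *Pkm* was highest at 23067, followed by *Gapdh* at 14463, *Aldoa* at 14369 and *Ldha* at 10662, and these 4 stood at or above the percentile 99.0 of expressed genes. *Hk2* followed at 3126, *Gpi1* at 2518, *Pfkp* at 1340, *Slc2a1* at 1167, *Pfkl* at 780 and *Hk1* at 227. Of the 10, *Aldoa*, *Gapdh*, *Pkm* and *Ldha* were thus at higher transcript levels than *Slc2a1* and the genes of hexokinase and phosphofructokinase. Outside the 10 this split was less clear. *Slc2a3*, also of uptake, was at 8436 counts per kb in WT and 9386 in KO. *Tpi1*, of a step after aldolase, was at 3253 and 4476, beside 2920 and 3332 for *Hk2*. Within a library the order of the 10 held in all 6 libraries for each pair of neighbours except *Gapdh* and *Aldoa*. *Aldoa* was 1.27 to 1.46 times as high as *Ldha* in each library, although the ranges over libraries overlapped. *Gapdh* and *Aldoa* did not overlap in WT, at 13851 ± 394 and 11598 ± 1541 counts per kb, but overlapped in KO, at 15076 ± 409 and 17139 ± 3088 (± SD of 3 libraries), and *Gapdh* was the higher in 3 of 3 WT libraries and 1 of 3 KO libraries. *Pfkp* and *Slc2a1* likewise overlapped over libraries in KO and not in WT, with *Pfkp* 1.02 to 1.31 times as high within a library.

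Isoenzyme use was measured within each library as the share of a gene in the summed counts per kb of its family, which needs no size factor. In 6 families a single gene led in every library: *Slc2a3*, *Hk2*, *Pfkp*, *Aldoa*, *Pkm* and *Ldha*. Their shares in KO minus those in WT lay between -3.01 and 1.91 percentage points. The exact two-sided permutation test of 3 against 3 libraries cannot give a p below 0.1, so no difference in share could pass, and all p-values adjusted over the 6 families were 0.6 or higher.

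Of the 4 facilitative glucose transporters compared, *Slc2a1* to *Slc2a4*, *Slc2a3* (GLUT3, a high-affinity transporter) had the highest level, and other members of this gene family were not included in the shares. *Slc2a3* made up 90.5%, 89.0% and 90.3% of the family in WT and 86.8%, 86.2% and 87.8% in KO. The WT and KO shares did not overlap. The difference of -3.01 points reached the smallest p that the design allows (exact p = 0.1, adjusted 0.6), and each pair gave a lower share in KO, by between -3.75 and -2.51 points. *Slc2a1* held nearly all of the rest, with 9.95% ± 0.753 in WT and 12.9% ± 0.811 in KO (± SD of 3 libraries). The ratio of *Slc2a3* to *Slc2a1* was 9.07 ± 0.738 in WT and 6.75 ± 0.496 in KO. *Slc2a3* itself was at 0.15 on the log2 scale, KO over WT (SE 0.09, adjusted p = 0.440, and 0.0410 with the replicate block). *Slc2a4* stayed at or below 55.5 normalized counts, and *Slc2a2*, the transporter of liver and pancreatic beta cells, at or below 5.29.

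*Hk2* made up 92.6% ± 0.550 of the hexokinases in WT and 92.9% ± 0.528 in KO (exact p = 0.5), and *Hk1* took 6.91% and 6.62%. Per kb *Hk2* exceeded *Hk1* by 13.5 ± 1.07 times in WT and 14.1 ± 1.05 times in KO. *Hk3* and *Hkdc1* were near the limit of detection.

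Of the 6 families, the phosphofructokinases were the one in which the leading gene held the smallest share. *Pfkp* made up 57.6% ± 1.29 in WT and 59.5% ± 2.88 in KO (exact p = 0.4), *Pfkl* 33.4% and 34.3%, and *Pfkm*, the muscle type, 9.02% ± 1.28 and 6.23% ± 0.911. Only the *Pfkm* shares did not overlap between genotypes. *Pfkm* had 526, 504 and 589 normalized counts in WT and 422, 488 and 523 in KO, which overlapped (log2 fold change -0.18, SE 0.14, adjusted p = 0.603).

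*Aldoa* made up 99.7% of the aldolases in WT and 99.8% in KO (exact p = 0.2), and *Aldoc* had between 73.9 and 179 normalized counts. *Pkm* made up 99.97% of the pyruvate kinases in both genotypes (exact p = 1), and *Pklr*, the gene of liver and red cells, had between 16.2 and 31.7 normalized counts. Neither *Aldoc* nor *Pklr* passed the test between genotypes (adjusted p = 0.820 and 0.819).

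*Ldha* made up 80.5% ± 0.766 of the lactate dehydrogenases in WT and 79.5% ± 1.39 in KO (exact p = 0.5), with most of the rest from *Ldhb*, the heart type. *Ldhb* rose beside *Ldha*, from 2896, 2991 and 2467 normalized counts to 4230, 4774 and 3266 (log2 fold change 0.56, SE 0.14, adjusted p = 0.00194). *Ldhc*, the testis type, fell from 85.2, 45.2 and 63.0 normalized counts to 30.5, 22.5 and 21.1 (log2 fold change -1.35, SE 0.37, adjusted p = 0.00685). In the DESeq2 fit of all 6 libraries, 2 of the 3 genes of this family rose and 1 fell, beside 2.70% and 4.78% of all genes, with the call of *Ldha* lost under the settings given above, and at these levels *Ldhc* was under 1 percent of the family.

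**Figure D3:**
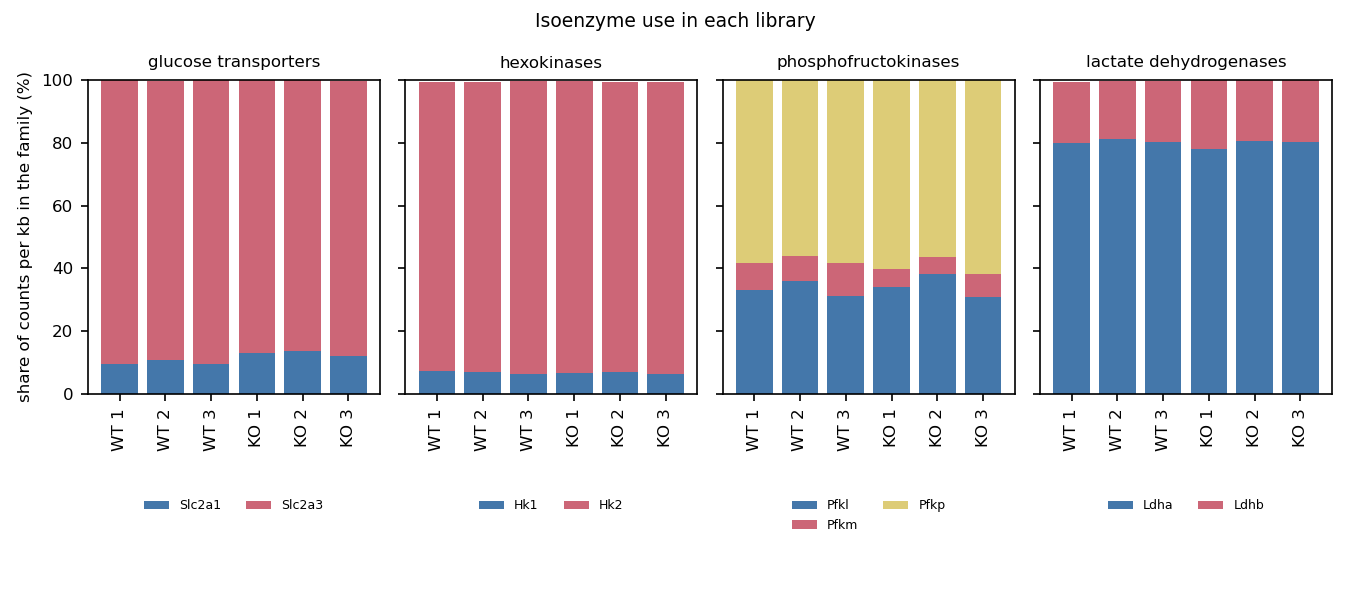
Share (%) of each isoenzyme gene in the summed counts per kb of its family in each library, for glucose transporters, hexokinases, phosphofructokinases and lactate dehydrogenases. Genes under 1% of their family on average are not drawn. *Slc2a3*, *Hk2*, *Pfkp* and *Ldha* take the largest share in all 6 libraries, and the *Slc2a1* share averages 9.95% in WT and 12.9% in KO.

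The other genes of the pathway and its surroundings were read from a list of 84 genes that includes 8 of the 10 genes above. Of its 76 further genes 68 were tested, of which 9 rose and 2 fell, beside the 2.70% and 4.78% of all genes, with a median log2 fold change of 0.08. Besides *Ldhb* and *Ldhc*, the called genes were *Pgk1*, *Pgam2*, *Pfkfb1*, *Pfkfb3*, *Mpc1*, *Pdha1*, *Pck2*, *Ankrd37* and *P4ha1*. Over all 84 genes 16 were called, but 10 on leaving out WT replicate 1, 8 on leaving out KO replicate 1 and 5 on leaving out KO replicate 2. The share of all genes called in either direction fell too, from 7.49% to 3.81%, 3.84% and 3.8%.

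Of the steps between *Gapdh* and *Pkm*, phosphoglycerate kinase rose. *Pgk1* (chrX:106187100-106203699, plus strand) had 18734, 20862 and 16987 normalized counts in WT and 31430, 40670 and 25483 in KO (log2 fold change 0.79, SE 0.15, adjusted p = 9.42e-06), and all KO libraries were above all WT libraries. The 61 genes within 10 Mb of it had a median of 0.33, and the part of the shift of this X region in the rise was not tested. *Pgam1*, the phosphoglycerate mutase of most tissues, was at 0.23 on the log2 scale, KO over WT (SE 0.11, adjusted p = 0.226, and 0.000275 with the replicate block). *Pgam2*, the muscle form, fell from 68.6, 79.8 and 90.4 normalized counts to 28.8, 38.6 and 50.2 (log2 fold change -1.08, SE 0.31, adjusted p = 0.0107), on a part of chromosome 11 whose genes had a median of -0.28. *Tpi1* was spread between 4293 and 11533 normalized counts with libraries that overlapped (log2 fold change 0.46, SE 0.39, adjusted p = 0.657). *Eno1*, the main enolase of most tissues, was listed with at most 18.4 normalized counts in any library. The annotation holds the near-identical copy *Eno1b*, which is not among the symbols of the files, and how reads that match both copies were counted is not given in the sources used here, so its log2 fold change of 1.40 (SE 1.02, adjusted p = 0.565) is uncertain, though it is counted among the 68 genes tested.

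Among regulators of phosphofructokinase, *Pfkfb1* and *Pfkfb3*, which make and break down its activator fructose-2,6-bisphosphate, rose from 307 to 372 normalized counts in WT to 507 to 532 in KO for *Pfkfb1* (log2 fold change 0.59, SE 0.14, adjusted p = 0.000583) and from 237 to 315 in WT to 354 to 421 in KO for *Pfkfb3* (log2 fold change 0.53, SE 0.16, adjusted p = 0.0170). *Pfkfb1* lies on X, where the genes within 10 Mb had a median of 0.44. *Tigar*, listed in the files under the older symbol 9630033F20Rik and the highest of its group, did not pass (log2 fold change -0.08, adjusted p = 0.790).

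On the way of pyruvate into mitochondria, *Mpc1*, a subunit of the mitochondrial pyruvate carrier, rose from 655, 769 and 731 normalized counts to 1001, 1074 and 1054 (log2 fold change 0.54, SE 0.12, adjusted p = 0.000198). Its partner *Mpc2* was at 0.04 on the log2 scale, KO over WT (SE 0.20, adjusted p = 0.958). *Pdha1*, the E1 alpha subunit of pyruvate dehydrogenase, rose (log2 fold change 0.32, SE 0.09, adjusted p = 0.00672) on a part of X where the genes within 10 Mb had a median of 0.43. All 9 genes of this group had log2 fold changes above 0, beside 51.6% of all genes tested and 62.4% of those with at least 1000 normalized counts. Of the 9, 2 passed as higher, beside 2.70% of all genes, and of these *Pdha1* is on X.

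For lactate export, none of the 3 genes tested passed, beside 7.49% of all genes called in either direction. *Bsg*, the chaperone of the monocarboxylate transporters and the highest of the group, was at 0.03 on the log2 scale, KO over WT (adjusted p = 0.958). *Slc16a3*, the exporter MCT4, had 466, 625 and 235 normalized counts in WT and 823, 1612 and 447 in KO. Its genotypes overlapped and replicates 2 were highest and replicates 3 lowest in both, and the log2 fold change of 1.12 (SE 0.63) had an adjusted p of 0.376, against 1.15e-14 with the replicate block.

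Of 8 tested hypoxia-response genes outside glycolysis, 2 passed as higher, beside 2.70% of all genes. Log2 fold changes were above 0 for 6 of the 8, beside 51.6% of all genes tested. *Ankrd37* rose from 115 to 128 normalized counts in WT to 188 to 258 in KO (log2 fold change 0.83, SE 0.20, adjusted p = 0.00122). *P4ha1*, a prolyl hydroxylase of collagen, had 495, 548 and 479 normalized counts in WT and 738, 910 and 518 in KO, with KO replicate 3 inside the WT range (log2 fold change 0.52, SE 0.18, adjusted p = 0.0422 by DESeq2 and 0.111 by edgeR). The replicate block added *Bnip3* (adjusted p = 4.21e-07) and *Vegfa* (adjusted p = 0.0491). This made 4 of the 8, beside 6.68% of all genes called higher by that fit. *Kdm3a*, the highest of the group, and *P4ha2* had log2 fold changes of -0.14 and -0.22. Neither passed (adjusted p = 0.559 and 0.784 by DESeq2 without the block). Of the 10 transcription factors and regulators known for control of glycolysis, none passed by DESeq2 with or without the block. Of all genes tested, 7.49% were called in either direction, and 14.6% with the block. The log2 fold changes of the 10 regulators ran from -0.25 to 0.66. The highest value was that of *Egln3*, a prolyl hydroxylase that acts on hypoxia-inducible factors, with 56.0, 62.8 and 49.3 normalized counts in WT and 102, 87.8 and 76.6 in KO (SE 0.27, adjusted p = 0.123), so that every KO library was above every WT library. The log2 fold changes were, for *Hif1a* 0.09 (SE 0.09, adjusted p = 0.745), *Myc* -0.06 (SE 0.15), *Mycn* 0.01 (SE 0.11) and *Lin28a*, the highest of them in level, 0.17 (SE 0.14). None of the 3 splicing factors known to choose between the *Pkm* exons passed either, with *Ptbp1* at 0.07 (SE 0.08, adjusted p = 0.801) and *Hnrnpa2b1*, the highest, at 0.08 (SE 0.15, adjusted p = 0.896).

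**Figure D4:**
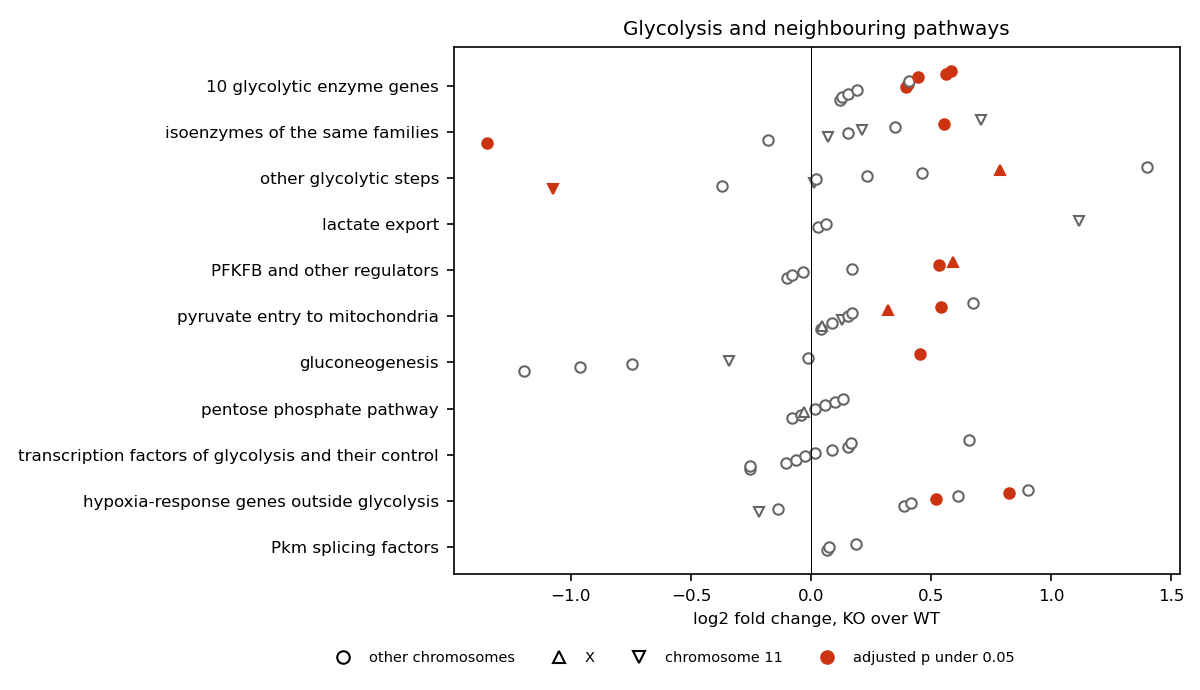
Log2 fold change of KO over WT for each tested gene of the glycolytic set, its isoenzymes and the neighbouring pathway groups, with filled red symbols for an adjusted p under 0.05 by DESeq2. Triangles mark genes on X (pointing up) and chromosome 11 (pointing down). The 10 glycolytic genes all lie above 0, while the pentose phosphate genes lie between -0.08 and 0.13.

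Some of the glycolytic genes share sequence or position with other loci. The annotation names processed pseudogenes of *Aldoa*, *Gapdh* and *Ldha* that are not among the symbols of the files, and how reads matching several loci were treated is not given in the sources used here. *Pfkp*, *Aldoa* and *Gapdh* overlap *Pitrm1*, *Fam57b* and *Iffo1* on the opposite strand. The libraries were stranded, but whether the counting used strand is not given either.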

How the data were processed

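The authors mapped reads to the mouse mm10 genome and deposited raw counts per gene symbol, one file per library, with no normalization. The submitters' processing notes name TopHat2 (2.1.1), Bowtie2 (2.3.1.0), featureCounts (1.6.2) and DESeq2. Libraries were grouped by their titles. The members and lists were chosen with earlier results of these data known. Genes named were the 10, their isoenzymes, called genes and the gene of each pathway group with the most normalized counts, and the 5 genes most alike the 10. *Tpi1*, *Eno1*, *Mpc2*, *Slc16a3*, *Pgam1*, *Bnip3*, *Vegfa*, *P4ha2*, *Hif1a*, *Egln3*, *Myc*, *Mycn*, *Ptbp1*, *Fbp2*, *Pck1*, *G6pc3* and the markers of other cell types were named outside this rule, after their values were seen.

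Here, DESeq2 (1.42.0, R 4.3.3) was fitted on all genes with genotype alone, median-of-ratios size factors, default independent filtering (0.1), a two-sided Wald test and Benjamini-Hochberg adjustment, with a threshold of 0.05. Fold changes were not shrunk, and intervals are 95% Wald intervals. Alternatives were edgeR (4.0.16) quasi-likelihood, limma-voom (3.58.1), TMM factors, factors outside chromosomes 11, X and Y, a filter of 10 counts in 3 libraries, no filtering or filtering optimised at 0.05, the replicate block, and leaving out libraries. Leaving out both replicates 1 or 2 and the edgeR block were chosen after seeing the data. The study calls its replicates biological, but no label ties them to separate cultures, so p-values measure the spread between these libraries. Positions and exon lengths came from GENCODE M21 (GRCm38), matched for 23053 of 23420 symbols, 1276 of them by an older symbol, and promoters from RefSeq. The detection limit was 3 counts, which covers counting error only. The fits were tested on simulated data. Some genes of the families are counted in the shares but not reported here by name.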

Additional observations from a re-analysis of the deposited data

How the results depend on the processing

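The 10 glycolytic genes kept a log2 fold change above 0 under all 18 alternatives. The number called was 5 with TMM factors, with factors outside chromosomes 11, X and Y, with low counts filtered out, with independent filtering turned off and with it optimised at 0.05. It was 2 with edgeR, 3 with limma-voom, 6 without both replicate 3 libraries (3.24% of all genes called higher), 0 without both replicate 1 libraries (0.548%) and 2 without both replicate 2 libraries (0.579%), and 2 to 6 when single libraries were left out. With the replicate block it was 7 in DESeq2 and 8 in edgeR, where *Gpi1* was added and 11.3% of all genes were called higher. Of the wider list of 84 genes, 16 were called (7.49% of all genes in either direction), 23 with the replicate block (14.6%), 32 with the replicate block in edgeR (24.4%), 1 without both replicate 1 libraries (1.56%), 3 without both replicate 2 libraries (1.65%) and 5 to 20 when single libraries were left out. Leaving out libraries leaves fewer samples, and for the other changes the cause was not tested.

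The difference in the *Pkm* share, -0.00099 percentage points, changed sign to 0.0032 without both replicate 3 libraries and ran from -0.0075 to 0.0047 when single libraries were left out. The other 5 leading shares kept their sign, from -3.47 to -2.67 points for *Slc2a3*, 0.113 to 0.629 for *Hk2*, 0.683 to 3.49 for *Pfkp*, 0.0368 to 0.101 for *Aldoa* and -1.44 to -0.165 for *Ldha*. Replicate 3 libraries, with 11040756 and 11420268 counts, limit low genes such as *Ldhc*, *Pgam2* and *Pklr*. With 3 libraries of each genotype no exact test of a share could reach 0.05.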

Other observations

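Of the 7 genes of the pentose phosphate pathway, which branches off after hexokinase and makes NADPH and ribose, none passed by DESeq2 with or without the replicate block. Of all genes tested, 7.49% were called in either direction, and 14.6% with the block. The log2 fold changes of the 7 genes ran from -0.08 to 0.13. *Tkt*, transketolase, had the most counts of them before division by length, with 11083 ± 307 normalized counts in WT (SD, n = 3), and was at 0.10 in KO over WT on the log2 scale (SE 0.08, adjusted p = 0.649). Of the 6 gluconeogenesis genes tested, 1 passed, beside 2.70% of all genes called higher and 7.49% in either direction. It was *Pck2*, the mitochondrial phosphoenolpyruvate carboxykinase, which rose from 622, 520 and 498 normalized counts to 771, 731 and 764 (log2 fold change 0.45, SE 0.13, adjusted p = 0.00992). The other 5 had log2 fold changes below 0 without passing, among them *Pcx*, the highest, at -0.01 (adjusted p = 0.980) and *Fbp2* at -0.96 (SE 0.34, adjusted p = 0.0567), whose KO libraries were all below its WT libraries.

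Of 6738 genes outside the wider list with a mean of at least 500 normalized counts, the 5 whose log2 levels over the 6 libraries were most alike the mean of the 10 glycolytic genes were *Depdc5* (Pearson's r = 0.995), *Abhd10* (0.993), *Adam17* (0.989), *Aes* (0.989) and *Scd1* (0.989). The 6 points fall into 3 libraries of each genotype and differ in depth, and the values are a description. None of the 5 passed by DESeq2, and *Aes* and *Scd1* passed with the replicate block (adjusted p = 0.0113 and 0.00318). Among the 10 themselves, *Hk2* was the least like the rest, with r = 0.508 against the mean of the other 9, where the others had 0.849 to 0.995. *Hk2* was highest in replicate 3 of both genotypes, in which most of the other glycolytic genes were lowest.

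Of the 8 ESC markers, *Dppa5a* rose (log2 fold change 0.38, SE 0.09, adjusted p = 0.00223), and with the replicate block *Pou5f1* and *Zfp42* passed too. The block fit thus called 3 of the 8 as higher, beside 12.2% of genes with a mean of at least 1000 normalized counts. *Otx2*, a marker of primed epiblast, rose from 44.6, 43.8 and 46.5 to 123.0, 126 and 114 normalized counts (adjusted p = 7.56e-07), while *Fgf5* of the same list stayed at or below 7.93. *Pou3f1* of that list went the other way without passing, with 40.0, 64.3 and 65.7 normalized counts in WT and 34.4, 39.7 and 31.7 in KO (log2 fold change -0.63, SE 0.34, adjusted p = 0.354), and all its KO libraries were below its WT libraries. The 4 genes of that list summed to 2113 to 2689 normalized counts in WT and 2275 to 2825 in KO. Most of this sum was *Dnmt3b*, at 2005 to 2600 in WT and 2105 to 2672 in KO, which did not pass (adjusted p = 0.671 by DESeq2). None of the 5 primitive endoderm markers passed, beside 7.49% of all genes called in either direction. Their sum was 107 to 145 in WT and 89.7 to 114 in KO. The part of these marker differences in the changes of the glycolytic genes was not tested.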
